A study of Mus musculus with 20 samples.

Results

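Amyotrophic lateral sclerosis (ALS) and frontotemporal dementia (FTD) run in families through mutations in a small group of genes, and in most patients the affected neurons accumulate TDP-43, the RNA-binding protein encoded by Tardbp. The set described here is 9 genes other than Tardbp that are mutated in familial ALS or FTD or associated with it. They are Grn, Tmem106b, Mapt, Sod1, Vcp, Tbk1, Optn, Sqstm1 and Ubqln2. They were picked by name from general knowledge of familial ALS and FTD and not by their values, though earlier results of these data were known. All 9 were found among the 24528 genes of the deposited table and passed the filter on genes at the floor in both regions. The comparisons ask whether brain RNA from these genes differed in mice with an acetylation-mimic TDP-43, and whether it differed between the hippocampus and the neocortex.

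Grn encodes progranulin, a secreted precursor that is cut into granulins in lysosomes, and Tmem106b encodes a lysosomal membrane protein that modifies the risk of FTD with progranulin loss. Mapt encodes tau, a neuronal microtubule-binding protein. Sod1 encodes the cytosolic copper/zinc superoxide dismutase. The remaining members act on ubiquitin-tagged cargo. Vcp encodes an ATPase that pulls such proteins out of complexes and membranes, Ubqln2 a shuttle that carries them to the proteasome, Sqstm1 and Optn receptors that link them to forming autophagosomes, and Tbk1 the kinase that phosphorylates both receptors. The patient mutations mostly alter the proteins or, for GRN and TBK1, remove 1 copy of the gene. The mice studied here were not designed to carry any of them.

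Ribosomal RNA-depleted total RNA was sequenced from mice of 18 months. The TDP43-KQ animals were homozygous for a lysine-to-glutamine knock-in in an RNA-recognition motif of endogenous mouse Tardbp, made by CRISPR-Cas9 editing of C57BL/6J zygotes, and TDP43-WT animals carried unedited Tardbp. The edit is in the germline, leaves the native promoter in place and was kept by breeding heterozygotes from a founder. The groups were neocortex TDP43-KQ (n = 6, 3 females and 3 males), neocortex TDP43-WT (n = 5, 3 females and 2 males), hippocampus TDP43-KQ (n = 5, 3 females and 2 males) and hippocampus TDP43-WT (n = 4, 3 females and 1 male). The neocortex libraries span 5 litters and those of the hippocampus 4. Whether a mouse gave a library for both regions is not in the labels, although each of the 6 hippocampus females has a neocortex namesake with its genotype and litter.

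Each deposited value is a variance-stabilized, log2-like number from which the authors had removed sex and litter, given relative to the gene's own mean over the neocortex TDP43-KQ libraries. That group therefore averages 0 for every gene, and neither the abundance of a transcript nor the sequencing depth can be read from the table, so precision rests on the spread between libraries. Levels of different genes cannot be ranked. The values are per gene, so the splice forms of a gene cannot be told apart. The paper reports altered splicing of Mapt and of the sortilin gene Sort1 in the knock-in mice. A small difference below therefore does not mean that the transcripts of a gene were unchanged. The removal of litter also left a mark on single libraries. Neocortex TDP43-WT male 1, the only library of its litter, equalled its group mean for every gene to within 3.8e-08, and the deviations of TDP43-KQ female 2 in the 2 regions were mirror images (their sum was at most 4.1e-08). The SDs given below thus understate the true spread, and the tests refitted sex and litter to charge for their removal. With a region fitted alone, some libraries add nothing to the genotype effect, because a sex or litter term fits them exactly. In the neocortex these are TDP43-WT male 1 and TDP43-KQ female 2. In the hippocampus they are TDP43-WT female 3 and TDP43-KQ females 2 and 3. The hippocampus effect then rests on TDP43-KQ female 1 and males 1 and 2 against TDP43-WT females 1 and 2 and male 1. All differences were tested with limma, with Benjamini-Hochberg adjustment over all genes tested and a threshold of 0.05, and are given on the log2-like scale with their standard error.

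The labels were checked on Tardbp, which was 0.99 ± 0.068 higher in TDP43-KQ than in TDP43-WT neocortex (adjusted p = 0.00191). In the hippocampus Tardbp differed by 0.86 ± 0.13 (adjusted p = 0.195 with the region fitted alone and 0.00162 with both regions in 1 fit), and in neither region did the groups overlap. The region labels fitted their markers. Relative to the neocortex, the hippocampus had 8 of 8 hippocampus markers called higher in TDP43-KQ mice and 7 of 8 in TDP43-WT mice. Of 8 neocortex markers, 7 were called lower in each genotype, and the exception, Fezf2, was higher. Choroid plexus markers varied widely between hippocampus libraries, with mean values of 0.24 to 3.88 in TDP43-KQ and -0.12 to 2.19 in TDP43-WT. Their TDP43-KQ minus TDP43-WT difference in the hippocampus was positive for 6 of 6 genes (median 1.72), none past the test. For microglia markers it was negative for 9 of 10 genes in the neocortex (median -0.17) and 10 of 10 in the hippocampus (median -0.20), and for oligodendrocyte markers negative for 8 of 8 in the neocortex (median -0.19) and in the hippocampus (median -0.36), again with none past the test. The part of any of these cell types in the results below was not tested. In bulk tissue, fewer cells of a type and less RNA per cell cannot be told apart.

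TDP-43 binds RNA that is rich in UG repeats, so the mature transcripts of the members were searched for TG runs, the same letters in DNA. In the longest protein-coding transcript of each gene in GENCODE M21 (GRCm38), the 6 letters TGTGTG, searched on the transcript strand only with overlapping matches counted, occurred at least once in 8 of the 9 members. They occurred in 68.0% of 21901 genes searched in the same way, transcripts of all lengths included, so the share among the members says little. Grn held 5 matches in 2340 bases, Tmem106b 6 in 6002, Mapt 4 in 5253, Sqstm1 2 in 2673, Optn 2 in 2614, Sod1 1 in 641, Vcp 1 in 3316 and Tbk1 1 in 3024, and Ubqln2, a gene of 1 exon, held 0 in 3344. The 4 members with an unbroken run of 8 or more bases are printed here because these are the letters that TDP-43 is known to bind. Capitals mark the TG run, and each stretch lies in the 3′ UTR in the last exon.
Grn: gagcttgctTGTGTGTGTGTGcgcgtgtgc
Tmem106b: cacccgtggtcTGTGTGTGgccacccttcc
Mapt: ggtaacgtgggTGTGTGTGccccttctgca
Optn: gggcatcttgtTGTGTGTGtaattctgtgg
The Grn stretch is chr11:102436744-102436773 on the plus strand, bases 2275 to 2304 of the transcript in exon 13 of 13, and its run of 12 bases is of a length reached by 6.40% of the 21901 transcripts. The Tmem106b stretch is chr6:13085774-13085803 on the plus strand (exon 9 of 9), the Mapt stretch chr11:104328901-104328930 on the plus strand (exon 10 of 10) and the Optn stretch chr2:5021040-5021069 on the minus strand (exon 14 of 14). A run of at least 8 bases was held by 21.9% of the transcripts. Introns were not searched, and a match is a description of the letters and not a binding site.

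In the neocortex none of the 9 members passed the test between TDP43-KQ and TDP43-WT mice. Differences ran from -0.10 (Sod1) to 0.11 (Optn), with adjusted p of 0.461 to 0.944. No member had an unadjusted p below 0.05, against 13.5% of all genes tested. Over all 18779 genes tested, 7 were called, which is 0.0373%. The median size of the difference, sign ignored, was 0.053 for the members and 0.063 for all genes. Every 95% interval of a member lay between -0.25 and 0.25, so the data bound these differences without showing that the genotypes were equal. No member's groups were separate, as against 8.31% of all genes.

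In the hippocampus none of the 9 passed the test either (adjusted p of 0.361 to 0.960), where 0 of 18691 genes were called (0%) and 2268 had an unadjusted p below 0.05. Even Tardbp, whose groups did not overlap, did not pass in this fit (adjusted p = 0.195). That none of the members passed therefore says little about them. The paper, with a different test (DESeq2), reports far more genes changed by genotype in each region. The largest member difference was that of Mapt, the only one of the 9 with an unadjusted p below 0.05. Median sizes were 0.061 for the members and 0.079 for all genes, and the intervals lay between -0.33 and 0.27. With both regions in 1 fit, which has more residual degrees of freedom, none of the 9 passed in either region, where 0.22% of 18160 genes were called for the neocortex and 0.38% for the hippocampus. The lowest adjusted p of a member was then 0.401 in the neocortex (Grn) and 0.0920 in the hippocampus (Mapt). The difference of the genotype effect between the regions was called for 0 of the 18160 genes (0%, 1052 with an unadjusted p below 0.05) and for none of the members (adjusted p of 0.833 to 0.979).

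**Figure D1:**
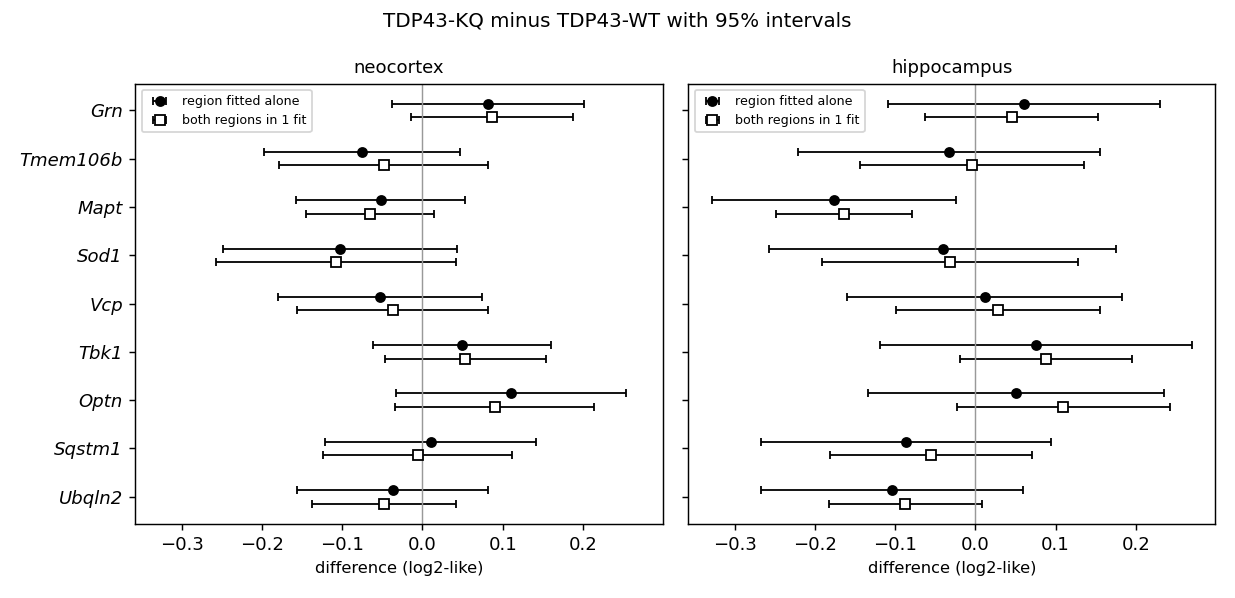
TDP43-KQ minus TDP43-WT difference of each member (horizontal axis, log2-like units) in the neocortex (left) and hippocampus (right), with the region fitted alone (filled circles) or both regions in 1 fit (open squares) and 95% intervals as bars. All intervals reach across 0 except those of Mapt in the hippocampus, and no member passed the adjusted test.

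Mapt stood lowest in TDP43-KQ hippocampus. Tau RNA in the 5 TDP43-KQ hippocampi had values of -0.25, -0.16 and -0.18 in females 1 to 3 and -0.15 and -0.21 in males 1 and 2, against -0.024, -0.042 and 0.010 in TDP43-WT females 1 to 3 and -0.048 in male 1. Every TDP43-KQ library was below every TDP43-WT library. Separation in 1 direction or the other was seen for 9.26% of all genes in the hippocampus. Among the members it was seen for Mapt and Ubqln2, each lower in TDP43-KQ. The Mapt difference was -0.18 ± 0.065 with the region fitted alone (95% interval -0.33 to -0.024, adjusted p = 0.361) and -0.16 ± 0.040 with both regions in 1 fit (-0.25 to -0.079, adjusted p = 0.0920), a change of -10.7% if the scale is read as log2. Of all genes in the fit of both regions, 13.2% differed by more. The value rests in part on TDP43-KQ female 1, the lowest library, without which it was -0.13 in either fit. With the region fitted alone, that -0.13 compares TDP43-KQ males 1 and 2 with TDP43-WT male 1. Without the same library, the adjusted p in the fit of both regions was 0.575. With all libraries and terms for the 4 groups alone, which does not charge for the removal of sex and litter, the adjusted p for Mapt was 0.00124.

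In the neocortex Mapt ran from -0.034 through a median of -0.0088 to 0.062 in TDP43-KQ libraries, against 0.075, 0.070, 0.050, 0.065 and 0.066 in TDP43-WT libraries. The TDP43-WT values were bunched and only TDP43-KQ female 1 reached into them. The fitted difference was -0.052 ± 0.047 (adjusted p = 0.623), and the hippocampus effect minus the neocortex effect was -0.099 ± 0.051 (adjusted p = 0.833). With the hippocampus fitted alone, the neuron markers were also negative there for 8 of 8 genes (median -0.14), none past the test. With both regions in 1 fit they were negative for 7 of 8 (median -0.082). Their mean per library in the hippocampus was -0.42 to -0.28 in TDP43-KQ and -0.29 to -0.17 in TDP43-WT. In the neocortex fitted alone they were negative for 5 of 8 genes (median -0.034), none past the test. Their mean per library there was -0.044 to 0.052 in TDP43-KQ and 0.069 to 0.13 in TDP43-WT, ranges that did not overlap. Whether their shift has a part in that of Mapt was not tested. The splice forms of Mapt cannot be seen in these values.

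A list of 28 genes was written from general knowledge, with tau kinases, other microtubule proteins, stathmins and others such as Crhr1 and Ppp2r2a. In TDP43-KQ hippocampus 24 were negative with a median of -0.089, against -0.0056 over all genes. In the neocortex 16 of 28 were negative with a median of -0.0073. None passed the test. The lowest p belonged to Stmn3, a stathmin that destabilizes microtubules, in the hippocampus (-0.26 ± 0.084, adjusted p = 0.317) and to Crhr1, the gene for a stress-hormone receptor that neighbours Mapt, in the neocortex (0.20 ± 0.059, adjusted p = 0.256). With both regions in 1 fit the tau-tubulin kinase Ttbk1 had the lowest p in the hippocampus (-0.24 ± 0.060, adjusted p = 0.106).

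**Figure D2:**
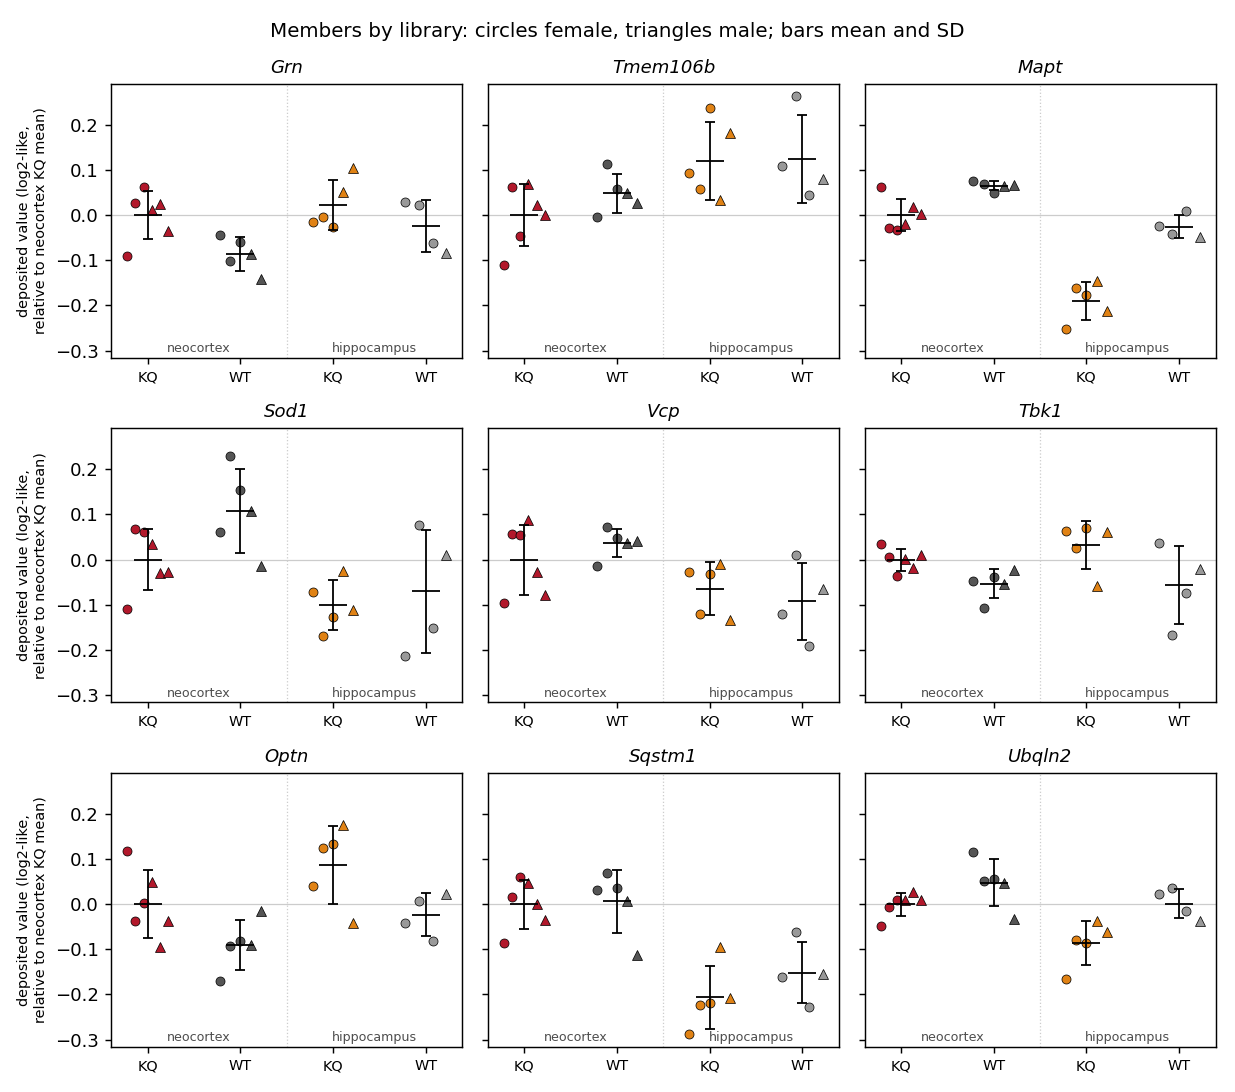
Deposited value of each member in all 20 libraries (vertical axis, log2-like, relative to the gene's mean in neocortex TDP43-KQ), by group, with circles for females, triangles for males, and the group mean and SD as bars. SDs understate the spread because sex and litter were removed. Mapt is separate between TDP43-KQ and TDP43-WT hippocampus, and Mapt and Sqstm1 lie lower in TDP43-KQ hippocampus than in TDP43-KQ neocortex.

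Ubqln2 was the other member whose hippocampus groups did not overlap. It had values of -0.17, -0.080 and -0.087 in females 1 to 3 and -0.037 and -0.061 in males 1 and 2 of TDP43-KQ, against 0.022, 0.035 and -0.016 in females 1 to 3 and -0.036 in male 1 of TDP43-WT. The gap between the highest TDP43-KQ and the lowest TDP43-WT library was small, and both of those were male 1 of their group. The difference was -0.10 ± 0.070 (adjusted p = 0.576), and -0.088 ± 0.045 with both regions in 1 fit (adjusted p = 0.385). With the region fitted alone it was -0.013 without TDP43-KQ female 1, the lowest library, and -0.19 without TDP43-WT male 1. In 1 fit it was -0.044 and -0.11 without the same libraries. In the neocortex it was -0.037 ± 0.053 (adjusted p = 0.766). Its mean there was 0.00 ± 0.025 in TDP43-KQ and 0.048 ± 0.053 in TDP43-WT (SD, n = 6 and 5).

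The list of ubiquilins, ubiquitin genes and client-handling chaperones had 11 of 15 genes negative in each region, with a median of -0.062 in the neocortex, one of -0.10 in the hippocampus, and 0 called. With both regions in 1 fit 1 of the 15 passed the test. This was Herpud1, an endoplasmic-reticulum stress gene whose protein binds ubiquilins, which was 0.42 ± 0.063 higher in TDP43-KQ hippocampus (adjusted p = 0.00982). With the hippocampus fitted alone Herpud1 differed by 0.47 ± 0.079 (adjusted p = 0.242). In the neocortex the constitutive chaperone Hspa8 had the lowest p (-0.16 ± 0.058, adjusted p = 0.297).

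The lysosomal members had point estimates of opposite sign in the neocortex, neither past the test. Grn ran from -0.090 through a median of 0.019 to 0.061 in neocortex TDP43-KQ, against -0.045, -0.10, -0.060, -0.086 and -0.14 in TDP43-WT libraries. All but 1 of the TDP43-KQ libraries, female 1, lay above every TDP43-WT library. The difference was 0.082 ± 0.053 (95% interval -0.038 to 0.20, adjusted p = 0.503). In the hippocampus Grn had -0.016, -0.0040, -0.027, 0.052 and 0.10 in TDP43-KQ libraries, against 0.030, 0.022, -0.062 and -0.085 in TDP43-WT libraries. The groups overlapped, and the difference was 0.061 ± 0.073 (adjusted p = 0.754). Without single libraries the Grn difference reached 0.030 in the neocortex (without TDP43-WT male 2) and -0.042 in the hippocampus (without TDP43-WT male 1). Tmem106b averaged 0.00 ± 0.069 in TDP43-KQ and 0.048 ± 0.043 in TDP43-WT neocortex (SD, n = 6 and 5) and 0.12 ± 0.086 in TDP43-KQ and 0.12 ± 0.097 in TDP43-WT hippocampus (SD, n = 5 and 4). Its fitted difference was -0.075 ± 0.054 in the neocortex (adjusted p = 0.545) and -0.033 ± 0.081 in the hippocampus (adjusted p = 0.882).

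Of 22 other genes of progranulin traffic and the lysosome, 17 were negative in TDP43-KQ neocortex with a median of -0.085 (all genes -0.0039), and 13 were negative in the hippocampus with a median of -0.025. None passed the test. The lowest p was that of the microglial protease gene Ctss in the neocortex (-0.32 ± 0.073, adjusted p = 0.182) and of Mitf, which encodes a relative of the lysosomal regulator TFEB, in the hippocampus (0.41 ± 0.14, adjusted p = 0.345). Sort1, the gene for the progranulin receptor sortilin, had the lowest p in the neocortex with both regions in 1 fit (0.12 ± 0.036, adjusted p = 0.176). This value is for the whole gene and does not show its splice forms. The microglia markers, negative for 9 of 10 genes in the neocortex, had mean values per library of -0.11 to 0.071 in TDP43-KQ and 0.069 to 0.25 in TDP43-WT.

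Sod1 had the largest negative difference of the members in the neocortex, -0.10 ± 0.065 (95% interval -0.25 to 0.044, adjusted p = 0.494). It was -0.019 without TDP43-KQ female 1 and -0.19 without TDP43-WT male 2. It ran from -0.11 through a median of 0.0039 to 0.068 in TDP43-KQ, against 0.061, 0.23, 0.15, 0.11 and -0.015 in TDP43-WT libraries. In the hippocampus the spread of TDP43-WT was wide, with values of -0.21, 0.078, -0.15 and 0.010, and the TDP43-KQ libraries, from -0.17 to -0.026, lay within it. The difference there was -0.041 ± 0.093 (adjusted p = 0.874). Of 19 other genes for superoxide and peroxide defence, 15 were negative in TDP43-KQ neocortex (median -0.059) and 11 in TDP43-KQ hippocampus (median -0.038), with 0 called. Slc7a11, the cystine carrier that feeds glutathione synthesis, had the lowest p in both, at 0.16 ± 0.077 in the neocortex (adjusted p = 0.391) and 0.56 ± 0.10 in the hippocampus (adjusted p = 0.242).

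Optn and Tbk1, receptor and kinase of the same autophagy step, each had a higher mean in TDP43-KQ in both regions, without passing the test. Optn ran from -0.095 through a median of -0.017 to 0.12 in neocortex TDP43-KQ, against -0.17, -0.093, -0.081, -0.090 and -0.015 in TDP43-WT libraries. The difference was 0.11 ± 0.064 (95% interval -0.033 to 0.25, adjusted p = 0.461), the lowest adjusted p among the members in that fit. It was 0.032 without TDP43-KQ female 1 and 0.24 without TDP43-WT male 2. In the hippocampus it was 0.051 ± 0.079 (adjusted p = 0.817), from 0.0053 to 0.098 when single libraries were left out. Tbk1 averaged 0.00 ± 0.024 in TDP43-KQ and -0.054 ± 0.032 in TDP43-WT neocortex (SD, n = 6 and 5) and 0.032 ± 0.053 in TDP43-KQ and -0.056 ± 0.087 in TDP43-WT hippocampus (SD, n = 5 and 4). The fitted differences were 0.049 ± 0.049 (adjusted p = 0.658) and 0.075 ± 0.083 (adjusted p = 0.732). Of 15 partners of TBK1 and optineurin, 10 were negative in TDP43-KQ neocortex (median -0.018) and 9 in TDP43-KQ hippocampus (median -0.020), with 0 called. The kinase-binding adaptor Tbkbp1 had the lowest p in the neocortex (0.25 ± 0.069, adjusted p = 0.245) and the antiviral adaptor Mavs in the hippocampus (0.14 ± 0.069, adjusted p = 0.462).

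Vcp and Sqstm1 had point estimates of opposite sign in the 2 regions with each fitted alone. Vcp differed by -0.053 ± 0.057 in the neocortex (adjusted p = 0.686) and 0.012 ± 0.074 in the hippocampus (adjusted p = 0.960). Sqstm1 differed by 0.010 ± 0.058 in the neocortex (adjusted p = 0.944) and -0.086 ± 0.078 in the hippocampus (adjusted p = 0.668). In the neocortex Sqstm1 values spanned -0.087 to 0.059 in TDP43-KQ and -0.11 to 0.070 in TDP43-WT, ranges that nearly coincide. Among 28 VCP cofactors 14 were negative in TDP43-KQ neocortex (median -0.0067) and 18 in TDP43-KQ hippocampus (median -0.016), with 0 called, and the cofactor gene Ubxn2b had the lowest p in both (-0.24 ± 0.075, adjusted p = 0.276, and -0.17 ± 0.067, adjusted p = 0.388). Among 23 genes of selective autophagy 14 were negative in the neocortex (median -0.026) and 16 in the hippocampus (-0.060), with 0 called. The lowest p belonged to Atg16l1 in the neocortex (0.21 ± 0.055, adjusted p = 0.219) and Atg7 in the hippocampus (-0.24 ± 0.070, adjusted p = 0.288), both of which encode parts of the machinery that conjugates LC3 to membranes.

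A further 33 genes of inherited ALS and FTD, such as Pfn1 and Kif5a, had 17 negative differences in TDP43-KQ neocortex (median -0.0038) and 21 in TDP43-KQ hippocampus (median -0.051), and none passed the test in any genotype fit. Spg11, mutated in a juvenile form of ALS, had the lowest p in the neocortex (0.24 ± 0.067, adjusted p = 0.246) and Nefh, the heavy neurofilament gene, in the hippocampus (-0.29 ± 0.065, adjusted p = 0.255). The paper, with a different test, names Spg11 among genes upregulated in the cortex.

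More genes passed the test between regions than between genotypes. In TDP43-KQ mice 2 members, Mapt and Sqstm1, were lower in the hippocampus than in the neocortex and none was higher, where 17.9% of 18160 genes were called lower and 16.9% higher. In TDP43-WT mice no member passed the test, where 14.5% were called lower and 13.3% higher. In each genotype 4 of the 9 members had an unadjusted p below 0.05, against 43.8% of all genes in TDP43-KQ and 38.4% in TDP43-WT. The share of members called is thus near the background in TDP43-KQ and below it in TDP43-WT. The median size of the difference, sign ignored, was 0.087 for the members and 0.10 for all genes in TDP43-KQ, and 0.076 and 0.11 in TDP43-WT. The sign was the same in both genotypes for 8 of the 9 members, Tbk1 being the exception, and for 80.0% of all genes.

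**Figure D3:**
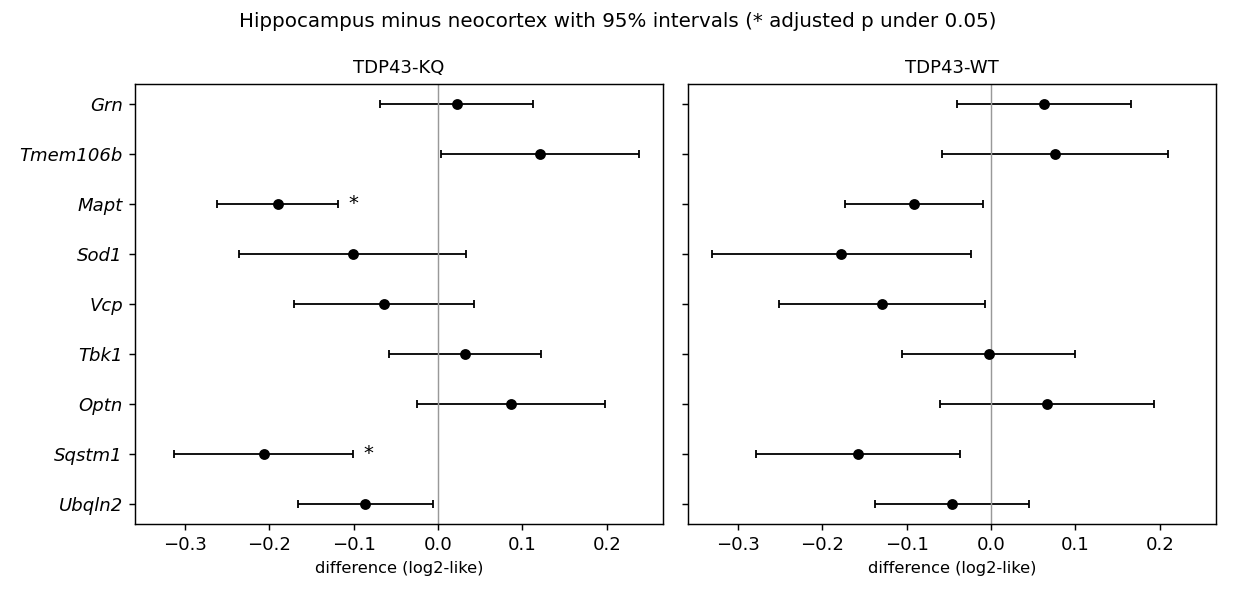
Hippocampus minus neocortex difference of each member (horizontal axis, log2-like units) in TDP43-KQ (left) and TDP43-WT (right) mice, with 95% intervals as bars and an asterisk where the adjusted p was under 0.05. Mapt (-0.19) and Sqstm1 (-0.21) passed the test in TDP43-KQ, and in TDP43-WT the lowest adjusted p was 0.0509 (Sqstm1).

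Sqstm1, the p62 receptor gene, was -0.29, -0.22, -0.22, -0.094 and -0.21 in hippocampus TDP43-KQ libraries, against a range of -0.087 to 0.059 with a median of 0.0080 in neocortex TDP43-KQ libraries. Every hippocampus library was below every neocortex library. Groups were separate in 1 direction or the other for 27.3% of all genes. The difference was -0.21 ± 0.050 (adjusted p = 0.00455), and it ran from -0.24 to -0.18 when single libraries were left out. In TDP43-WT mice Sqstm1 was -0.16, -0.061, -0.23 and -0.16 in the hippocampus, against 0.031, 0.070, 0.035, 0.0060 and -0.11 in the neocortex. Neocortex male 2 reached into the hippocampus range, and the difference of -0.16 ± 0.057 just missed the threshold (adjusted p = 0.0509). It passed with each library centred on its median (adjusted p = 0.0466), with female libraries of matching labels joined (adjusted p = 0.0186) and with the 6 females as a replicate block (adjusted p = 0.0222). Without the filter it did not pass (adjusted p = 0.05003). When single libraries were left out it passed in 5 of 20 fits and not in the other 15 (adjusted p of 0.0127 to 0.218). The change of the regional difference with genotype was -0.049 ± 0.075 (adjusted p = 0.928).

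Mapt was the other member lower in TDP43-KQ hippocampus, with a difference of -0.19 ± 0.034 (adjusted p = 0.000414) and the library values given above. In TDP43-WT mice the 4 hippocampus values, at most 0.010, all lay below the 5 neocortex values, at least 0.050. The groups were separate in 1 direction or the other for 31.6% of all genes. The difference was -0.091 ± 0.038 (adjusted p = 0.0915). The change with genotype is the same contrast as that of the genotype effect with region, -0.099 ± 0.051, which did not pass the test. The neuron markers were lower in the hippocampus too, with 8 of 8 called in TDP43-KQ (median -0.32) and 6 of 8 in TDP43-WT (median -0.36). Their mean per library was -0.42 to -0.28 in TDP43-KQ hippocampus and -0.044 to 0.052 in TDP43-KQ neocortex, groups as separate as those of Mapt. Their part in the regional difference of Mapt was not tested. Of the 28 genes on the tau kinase and microtubule list, 18 were lower and 1 higher in TDP43-KQ hippocampus. In TDP43-WT hippocampus 12 were lower and 3 higher. Stmn1, a stathmin gene, was the lowest in both (-1.01 ± 0.083 and -1.02 ± 0.094, adjusted p = 1.9e-07 and 8.8e-07) and Map4, a microtubule-associated protein gene of non-neuronal cells as well, the highest (0.28 ± 0.047 and 0.30 ± 0.054).

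Of the members that did not pass, Sod1 differed by -0.10 ± 0.063 in TDP43-KQ (adjusted p = 0.238) and -0.18 ± 0.072 in TDP43-WT (adjusted p = 0.0808). Vcp differed by -0.064 ± 0.050 in TDP43-KQ (adjusted p = 0.351) and -0.13 ± 0.057 in TDP43-WT (adjusted p = 0.110). Ubqln2 differed by -0.086 ± 0.038 in TDP43-KQ (adjusted p = 0.0913) and -0.046 ± 0.043 in TDP43-WT (adjusted p = 0.455). Tmem106b had the most positive value, 0.12 ± 0.055 in TDP43-KQ (adjusted p = 0.106) and 0.076 ± 0.063 in TDP43-WT (adjusted p = 0.400). For Grn, Optn and Tbk1 the differences ran from -0.0026 to 0.087 over both genotypes, with adjusted p of 0.221 or more.

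Counts of called genes among those that work with the members stand beside 17.9% of all genes lower and 16.9% higher in TDP43-KQ hippocampus, and 14.5% lower and 13.3% higher in TDP43-WT hippocampus. In selective autophagy, 10 of 23 were lower and 2 higher in TDP43-KQ hippocampus, and 8 lower and 1 higher in TDP43-WT hippocampus, with the LC3 gene Map1lc3a the lowest in both (-0.44 ± 0.074 and -0.34 ± 0.084). The highest were Nfe2l2, the oxidative-stress factor that p62 frees from KEAP1, in TDP43-KQ (0.31 ± 0.059) and the initiation factor Atg101 in TDP43-WT (0.15 ± 0.053). Among ubiquilins and client chaperones 6 of 15 were lower and 3 higher in TDP43-KQ, and 5 lower and 2 higher in TDP43-WT. Ubqln4, a paralogue of Ubqln2, was the lowest (-0.38 ± 0.042 and -0.31 ± 0.048), and the small heat-shock gene Hspb8 in TDP43-KQ (0.50 ± 0.082) and its partner Bag3 in TDP43-WT (0.24 ± 0.037) the highest. The TBK1 and optineurin partners had 5 of 15 higher and 3 lower in both genotypes, led by the signalling adaptor Traf3 (0.54 ± 0.059 and 0.66 ± 0.068) and the deubiquitinase Cyld (-0.33 ± 0.044 and -0.37 ± 0.050).

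VCP cofactors had 5 of 28 higher and 3 lower in TDP43-KQ and 3 higher and 2 lower in TDP43-WT, with Ubxn4 the highest (0.34 ± 0.031 and 0.24 ± 0.035) and the VCP methyltransferase gene Vcpkmt the lowest (-0.32 ± 0.055 and -0.23 ± 0.062). Lysosomal genes had 3 of 22 higher and 2 lower in each genotype, led by Gpnmb (0.46 ± 0.070 and 0.43 ± 0.079) and Ctsb (-0.21 ± 0.044 and -0.30 ± 0.050). Of the superoxide and peroxide genes 3 of 19 were higher and 2 lower in TDP43-KQ, and 0 higher and 2 lower in TDP43-WT, with catalase, Cat, the highest in TDP43-KQ (0.41 ± 0.11), sulfiredoxin, Srxn1, the lowest there (-0.53 ± 0.048) and the glutathione peroxidase Gpx1 the lowest in TDP43-WT (-0.50 ± 0.076). Of the other inherited ALS and FTD genes 7 of 33 were higher and 10 lower in TDP43-KQ, and 8 each way in TDP43-WT. The kinesin gene Kif5a was the lowest in TDP43-KQ (-0.44 ± 0.076) and the tubulin gene Tuba4a in TDP43-WT (-0.40 ± 0.055), while the neurofilament-like Prph (0.37 ± 0.10) and the stress-granule gene Tia1 (0.46 ± 0.15) were the highest.

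Within groups the members did not vary as 1 block. After each library's value was taken as a deviation from its group mean, the 36 pairs of members had Pearson's r of -0.66 to 0.76 over the 20 libraries, with a median of 0.040 and 20 pairs above 0. These are descriptions, since the libraries share litters and the removal of sex and litter. Sqstm1, the autophagy receptor, ran with Ubqln2 (r = 0.76, Spearman's coefficient = 0.66), Sod1 (0.73, Spearman's = 0.74), Grn (0.65, Spearman's = 0.68) and Vcp (0.60, Spearman's = 0.63). Sod1 and Vcp ran together (0.74, Spearman's = 0.76), and so did Grn and Ubqln2 (0.72, Spearman's = 0.81). Tbk1 ran against Sod1 (-0.66, Spearman's = -0.47) and against Sqstm1 (-0.66, Spearman's = -0.64). Without the 2 libraries farthest from the median of the first gene, r was 0.64 for Sqstm1 with Ubqln2, 0.72 for Sod1 with Vcp, -0.43 for Sod1 with Tbk1 and -0.42 for Tbk1 with Sqstm1.

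**Figure D4:**
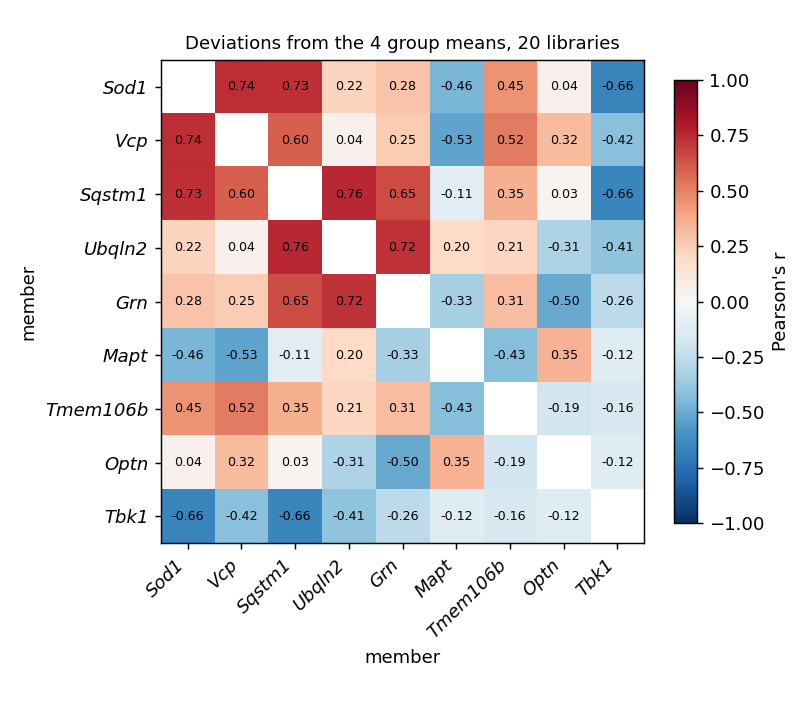
Pearson's r between members (rows and columns) of each library's deviation from its group mean over 20 libraries, on a colour scale of -1 to 1. Sod1, Vcp, Sqstm1, Ubqln2 and Grn form the block of positive values with r of 0.60 to 0.76 for 6 pairs, and Tbk1 is negative with every other member.

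Among the 18160 genes tested in both regions, those whose deviations were most like a member's were, for Sqstm1, Arhgdia (r = 0.98) and the mitochondrial malate dehydrogenase gene Mdh2 (0.97), and for Sod1 the proteasome receptor gene Psmd4 (0.97) and the ATP synthase inhibitor gene Atpif1 (0.96). Tmem106b was most like Ssr3 (0.96), a subunit of the endoplasmic-reticulum translocon, and Lin7c (0.95). Tbk1 was most like Zfp57 (0.96) and Fmo2 (0.94), Vcp like Hspb11 (0.94) and N6amt1 (0.94), and Optn like Cwc27 (0.92) and Lrrc3 (0.89). Ubqln2 was most like Ubald1 (0.91) and Mrps17 (0.90), Mapt like Tmem114 (0.90) and the potassium channel gene Kcnk4 (0.88), and Grn like Med22 (0.90) and Hacd4 (0.89). These are the highest of 18160 values each, and no member was among the 2 most alike of another.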

How the data were processed

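Total RNA sequencing of neocortex and hippocampus was analysed in 20 libraries. After trimming (cutadapt), the authors mapped reads to mm10 (STAR 2.5.2b), estimated transcript abundance (Salmon) and used DESeq2 1.34.0 in R 4.1.0. What they deposited is a log2-like number per gene, variance-stabilized and then freed of sex and litter by limma. With groups kept, the largest remaining sex or litter coefficient was 4.8e-08. Groups came from the sample labels. Of 24528 genes, 4383 were 0 in every library. Genes without variation in a region, or tied within 1e-06 in the 3 females of litter 6, were left out. The remainder were fitted with limma 3.58.1 (R 4.3.3, statmod 1.5.0; lmFit and eBayes) on genotype, sex and litter per region (4 and 3 residual degrees of freedom), and on the 4 groups, sex and litter over both regions (11), with Benjamini-Hochberg adjustment. Nothing says that libraries of the 2 regions come from separate animals. The members, lists, tests and alternatives were chosen with earlier results of these data known. From each list the gene with the lowest p, or every gene called (at most 3), was named per genotype comparison, and the called gene with the largest difference on each side between regions. Numbers were not taken to pair libraries of the 2 genotypes. Same-numbered libraries did not deviate together (neocortex r of -0.10 to 0.12, hippocampus r of -0.60 to -0.13). These correlations cannot decide on pairing, because the removal of sex and litter shapes the deviations. Gene and transcript positions are of GRCm38. Figures used Python 3.11.15 and matplotlib 3.10.9.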

Additional observations from a re-analysis of the deposited data

How the results depend on the processing

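No member passed the genotype test in the neocortex under any alternative, and in the hippocampus only Mapt did (1 member called), with genotype as the only term (-0.16, adjusted p = 0.0446) and, for both regions in 1 fit, with the 4 groups as the only terms (-0.16, adjusted p = 0.00124), settings that do not charge for the removed sex and litter. Counts over all genes depended on these terms. In the neocortex 2743 genes were called with genotype alone, 1925 with sex but no litter, 2396 with litter as a random effect, 1862 with a replicate block in place of sex and litter and 0 without the filter. In the hippocampus 376, 150 and 153 genes were called with the first 3 of these settings and 0 with the replicate block. With both regions in 1 fit and groups alone, 2372 genes were called in the neocortex, 2077 in the hippocampus, 68 for the difference of the genotype effect and 7583 between regions in TDP43-WT, and 4 members were called between regions in each genotype (Tmem106b at 0.12 and Ubqln2 at -0.086 beside Mapt and Sqstm1 in TDP43-KQ, and Mapt, Sod1, Vcp and Sqstm1 in TDP43-WT). In TDP43-WT 2 members, Sod1 and Sqstm1, were called with female libraries of matching labels joined and with the females as a replicate block, and 1, Sqstm1, with each library centred on its median. Some small differences changed sign. Sqstm1 in the neocortex was -0.0060 with genotype alone, -0.0020 without litter, -0.0072 with random litter and, in 1 fit with those libraries joined, 0.00097. Tmem106b in the hippocampus was 0.0013 without litter, 0.0024 with random litter and 0.0063 in 1 fit with those libraries joined. Grn between regions in TDP43-KQ was -0.015 with the replicate block. The cause of these changes was not tested.

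Leaving out single libraries gave 0 to 8 called genes for genotype in the neocortex and 0 to 28 for the hippocampus. With both regions in 1 fit it gave 7 to 123 and 8 to 137, and 0 to 3 members between regions in TDP43-WT. The 3 were called without hippocampus female 2. Between regions in TDP43-WT, Sod1 ran from -0.23 to -0.12, Vcp from -0.17 to -0.075 and Sqstm1 from -0.21 to -0.12, each called in some of these fits. Signs changed in the neocortex for Sqstm1 (-0.069 to 0.092) and Ubqln2 (-0.11 to 0.015), and in the hippocampus for Grn (-0.042 to 0.16), Tmem106b (-0.092 to 0.026), Sod1 (-0.11 to 0.016), Vcp (-0.019 to 0.041) and Sqstm1 (-0.18 to 0.0047). In 1 fit they changed in the neocortex for Vcp (-0.090 to 0.0029) and Sqstm1 (-0.079 to 0.030), in the hippocampus for Tmem106b (-0.045 to 0.043), Sod1 (-0.080 to 0.020) and Vcp (-0.014 to 0.062), for the difference of the genotype effect for Tbk1 (-0.0081 to 0.071), Optn (-0.013 to 0.058) and Sqstm1 (-0.085 to 0.0016), and between regions for Grn in TDP43-KQ (-0.0032 to 0.052) and Tbk1 in TDP43-WT (-0.037 to 0.039). Mapt and Sqstm1 stayed called between regions in TDP43-KQ without any single library. Hippocampus fits without TDP43-WT male 1 or TDP43-KQ female 1 rest the genotype effect on 1 library of a group, which is assumed to vary like the others. Depth is unknown, and with 4 to 6 libraries a group, differences of the size seen for most members could not be told from the spread.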
